A study of Homo sapiens with 15 samples.

Results

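THP-1 is a human monocytic leukaemia cell line that is widely used as a model of monocytes and macrophages. Its cells were incubated with bacterial extracellular vesicles (BEVs), the small membrane particles that bacteria shed. The libraries described here come from BEVs isolated with ε-poly-L-lysine (PL), a positively charged polymer that precipitates vesicles from culture medium. The 3 libraries of the EPL group came from cells given 1 μg/mL of BEVs from Escherichia coli DH5a, and the 3 libraries of the SPL group from cells given 10 μg/mL of BEVs from a Staphylococcus aureus strain of the CICC collection. They make up 6 of the 15 libraries of the series and were chosen by their group labels alone, with no measured value used. The other libraries, used only where stated, are 3 of non-stimulated cells given PBS (NC) and 3 each of BEVs from the same bacteria isolated by ultracentrifugation, at 1 μg/mL for E. coli (EUC) and 10 μg/mL for S. aureus (SUC). RNA was taken after 6 hours according to the methods of the study, while the labels give Day 0. The species and the dose of the BEVs changed together, so that their parts in any difference between EPL and SPL cannot be told apart. The methods of the study state that BEVs were given to cells in wells and that each group was run in triplicate. Neither the methods nor the labels say whether the 3 libraries of a group came from separately grown cultures. The p-values therefore measure only the spread between these libraries.

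E. coli is Gram-negative, and its vesicles bud from an outer membrane that carries lipopolysaccharide, which is sensed by Toll-like receptor 4 (TLR4). S. aureus is Gram-positive, and its vesicles carry lipoproteins and lipoteichoic acid, which are sensed mainly by TLR2. Both receptors signal through MyD88 to NF-kappa B and the MAP kinases, while TLR4 also signals through TRIF to IRF3, type I interferon and interferon-stimulated genes. The comparison of EPL with SPL asks how far the response of one cell type differed between these preparations.

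The deposited whole-number counts per gene summed to 14482563 to 15928295 in the 6 libraries. EPL1 stood apart from its group before any gene was compared. A chi-square of the counts per degree of freedom was 17.4 between EPL1 and EPL2 and 19.1 between EPL1 and EPL3, against 2.74 between EPL2 and EPL3 and 3 to 4.43 among the SPL libraries. The difference of EPL1 from the mean of EPL2 and EPL3 had a Spearman rho with the GC content of genes of 0.387 and with their transcript length of -0.431, over 14484 genes. Each library was set against the others of its group, so a shift in EPL1 alone would also give EPL2 and EPL3 values of the other sign. For EPL2 and EPL3 the rho was -0.147 and -0.43 with GC content and 0.331 and 0.327 with length. In SPL, where EPL1 has no part, the rho with GC content ran from -0.376 (SPL3) to 0.262 (SPL2). The rho with length ran there from -0.198 to 0.126. In the same count, pairs with EUC3 had 21.4 and 43.3 against 6.79 for the other pair of EUC, and pairs with SUC3 had 14.6 and 25.1 against 5.4, with rho with length of -0.447 for EUC3 and -0.444 for SUC3. Results are therefore also given without EPL1 where they rest on it, and the part of the GC content in the results was not tested beyond a correction given in the closing section. The mean Pearson correlation of log2 CPM (CPM, the TMM-normalized counts scaled to a common library size, with a prior count of 2) was 0.9874 within EPL and SPL and 0.9862 between them. That difference, 0.001195, had a one-sided exact permutation p of 0.3 over the 10 splits of 3 against 3. The smallest p these splits allow is 0.1, so that the test cannot pass a threshold of 0.05. That p was reached without EPL1, without EPL2 and without EPL3, while without SPL1, SPL2 or SPL3 it was 0.4, 0.6 and 0.6. It was also reached over the 1000 most variable genes, which were picked by their variance over all 15 libraries, group differences included. The 17 tested marker genes of monocytic leukaemia cells summed to 6652 to 9442 CPM in EPL and 7392 to 8113 CPM in SPL, and MEIS1 had no count in either group. The 1 tested T cell marker of 6 had at most 0.59 CPM in EPL and 0.62 CPM in SPL. CD2, CD3D and CD3G were at 0, and the 5 erythroid markers had no count. The 2 tested B cell markers of 5 summed to 15.8 to 26.6 CPM in EPL and 16.2 to 20.9 CPM in SPL. For the 3 tested NK cell markers of 5 the sums were 25.04 to 29.1 and 29.2 to 30.7 CPM. The 1 tested epithelial marker of 5 had 1.19 to 2.03 and 1.48 to 2.62 CPM, with KRT19 at 0. The 1 tested neutrophil granule marker of 5 had 0.787 to 1.21 CPM in EPL and 0.0689 to 0.703 CPM in SPL, with CEACAM8 at 0. Mitochondrial transcripts took 4.3 to 4.53% of the counts.

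Most genes differed little between EPL and SPL. Genes were compared with edgeR's quasi-likelihood test on all 15 libraries, with Benjamini-Hochberg adjustment over the 17198 tested genes, and an adjusted p below comes from this fit unless a fit without EPL1, over 17715 tested genes, or another tool is named. Differentially expressed genes (DEGs) were those that changed at least 2-fold at an adjusted p no larger than 0.01. By this rule 18 genes (0.105% of those tested) were higher in EPL and 3 genes (0.0174%) were lower. At an adjusted p no larger than 0.05 and any size of change, 147 genes (0.855%) were higher and 41 (0.238%) were lower, 188 in all, of which 177 are protein-coding and 9 are lncRNA genes. The changes were mostly small, since 61 of the 147 and 22 of the 41 genes differed by less than 1.5-fold. The log2 fold changes of EPL over SPL had a median of 0.01 over all tested genes, and from the 5th to the 95th percentile they ran from -0.43 to 0.57. The group values did not overlap for 1408 genes with EPL above SPL (8.19%) and for 1093 with EPL below SPL (6.36%). Genes picked by a small p tend to have no overlap, and for DEGs named by size it was a condition. A lack of overlap in such genes is therefore only a description below and adds no support. The shares of 0.855% higher and 0.238% lower are those to set beside each count of list members below. The lists were written with earlier results of these data known, and a gene can be in several of them, as LAMP3 is.

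**Figure D1:**
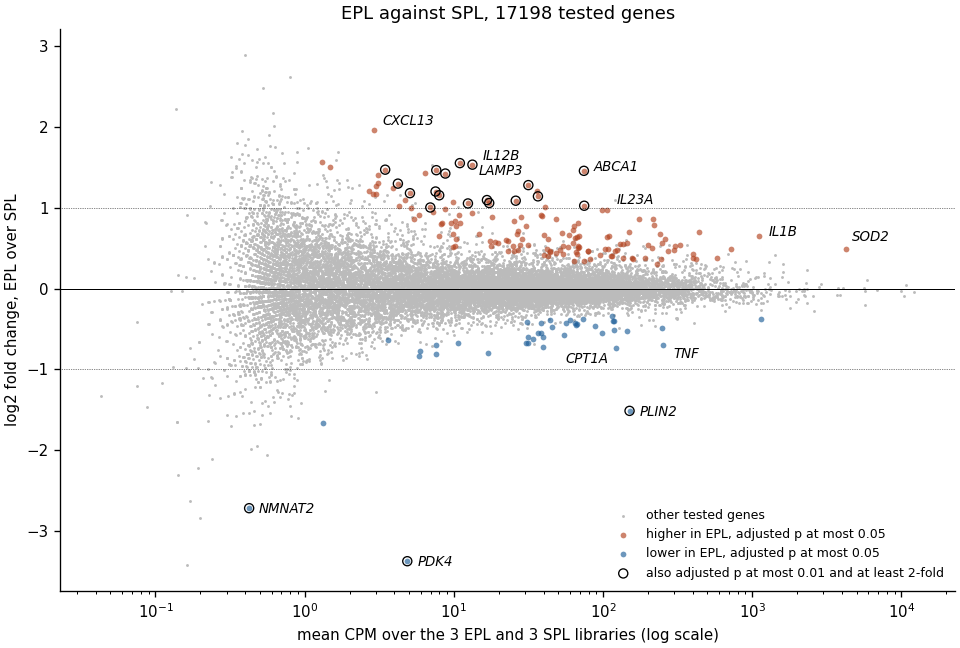
Each point is 1 of the 17198 tested genes, with its mean CPM over the 3 EPL and 3 SPL libraries on a log axis and its log2 fold change of EPL over SPL on the vertical axis. Red and blue points have an adjusted p no larger than 0.05 (147 higher and 41 lower in EPL), black rings mark the 21 DEGs, and PDK4 lies lowest of these at a log2 fold change of -3.37.

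The counts of DEGs depended on single libraries. Without EPL1, 11 genes were higher and 2 lower, and 12 of the 21 DEGs kept their call. Without EPL2, EPL3, SPL1, SPL2 or SPL3 the higher DEGs numbered 5, 11, 4, 3 and 4, with 2 lower in each of these fits. At an adjusted p no larger than 0.05, the fit without EPL1 gave 135 higher and 54 lower genes, and the fit without SPL2 gave the fewest, 32 and 9. CALCRL, LAMP3, TNFRSF9, PDK4 and PLIN2 were DEGs in each of the 6 fits that left out 1 library, and 33 of the 188 genes, 27 of them higher in EPL, kept an adjusted p no larger than 0.05 in each. Each of the other 16 DEGs lost its call in at least 1 of these fits. The 9 that lost it without EPL1 were ARHGAP22, CRLF2, ETV3L, IL33, NMNAT2, OLR1, PXDC1, SLC1A2 and VCAM1. Of the 61 genes taken by the naming rule with an adjusted p no larger than 0.05, 48 kept it without EPL1 and 22, the fewest, without SPL2.

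**Figure D2:**
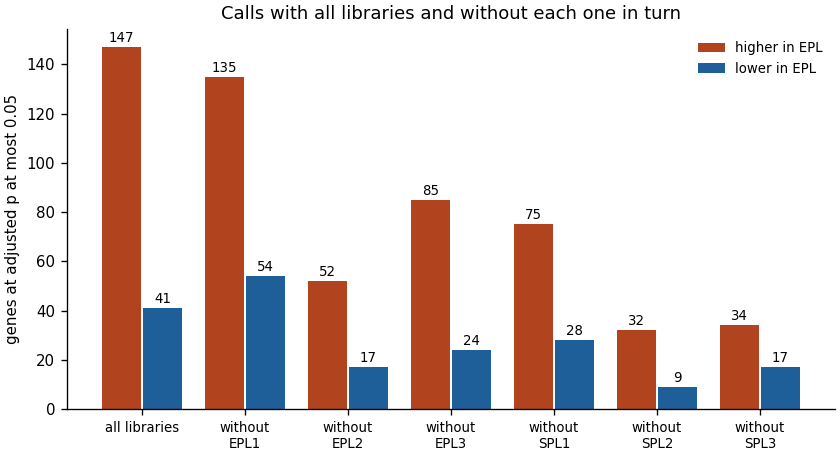
Bars give the number of genes at an adjusted p no larger than 0.05, higher (red) or lower (blue) in EPL, with all libraries and without each library in turn. The highest bar of higher genes is that of all libraries, 147, and the lowest is the 32 without SPL2.

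PDK4, PLIN2 and CPT1A, genes of lipid use, were lower in EPL, and PDK4 had the largest change of the 41 lower genes. In cells, fatty acids released from lipid droplets activate PPAR transcription factors, whose targets coat droplets and burn fatty acids in mitochondria. PDK4 encodes a kinase that switches off pyruvate dehydrogenase and so spares glucose when fat is burnt (chromosome 7, 95583499 to 95596516, hg38, GENCODE release 44, protein-coding). PDK4 had 0.853, 0.892 and 0.812 CPM in the EPL libraries and 10.5, 7.34 and 8.89 CPM in the SPL libraries. In bulk RNA, fewer cells expressing a gene and less RNA per cell cannot be told apart. The 3 SPL values lay far above the 3 EPL values, and EPL lay near non-stimulated cells, at 1.26 ± 0.375 CPM (SD, n = 3). The log2 fold change of EPL over SPL was -3.37 ± 0.31 (SE, adjusted p = 5.52e-05), and it was -3.38 without EPL1. PLIN2 encodes perilipin 2, the coat protein of lipid droplets (chromosome 9, 19108375 to 19149290). PLIN2 had 83.5, 71.2 and 79.8 CPM in the EPL libraries and 250.01, 216 and 203 CPM in the SPL libraries. The SPL values were all more than 2-fold above the EPL values, with non-stimulated cells at 49.7 ± 2.16 CPM. Its log2 fold change was -1.51 ± 0.12 (adjusted p = 1.13e-05). NMNAT2, an enzyme of NAD synthesis, was the third lower DEG but was at few counts. NMNAT2 had 0.0656, 0.0637 and 0.187 CPM in the EPL libraries and 0.83, 0.644 and 0.758 CPM in the SPL libraries, and non-stimulated cells had 1.92 ± 0.171 CPM.

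CPT1A encodes the carnitine palmitoyltransferase that admits long-chain fatty acids to mitochondria. CPT1A had 81.1, 101 and 91.7 CPM in the EPL libraries and 161, 151 and 145 CPM in the SPL libraries, at a log2 fold change of -0.74 ± 0.11 (adjusted p = 0.00255). Its groups did not overlap, and SPL lay near non-stimulated cells at 159 ± 6.37 CPM. SLC25A20, the carrier for acylcarnitines that acts after CPT1A, had a log2 fold change of -0.51 with an adjusted p of 0.0546. MLXIPL, a glucose-sensing transcription factor of lipid synthesis, was at 12.4 ± 1.83 CPM in EPL and 21.5 ± 1.17 CPM in SPL (log2 fold change -0.80 ± 0.13, adjusted p = 0.00663). Of the 17 tested genes listed for PPAR and lipid handling, 3 were lower (PDK4, PLIN2 and CPT1A) and 0 higher at an adjusted p no larger than 0.05. Their median log2 fold change was -0.18, against 0.01 over all tested genes, and 11 of the 17 were fitted below 0. CD36, a fatty acid receptor, was at 162 ± 4.83 CPM in EPL and 161 ± 11.3 CPM in SPL, and HADHA and ACADVL, enzymes of fatty acid oxidation, had log2 fold changes of -0.19 and -0.18 without passing the test.

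Among targets of the oxysterol receptors LXR, 2 genes were higher in EPL. ABCA1, the pump that moves cholesterol out of the cell to apolipoproteins, was among the DEGs higher in EPL (chromosome 9, 104781006 to 104928155). ABCA1 had 86.9, 125 and 116 CPM in the EPL libraries and 43.1, 38.4 and 37.7 CPM in the SPL libraries, without overlap, and non-stimulated cells had 29.8 ± 3 CPM. The log2 fold change was 1.46 ± 0.21 (adjusted p = 0.0028), and 1.60 without EPL1, which was the lowest of the EPL libraries. MYLIP, which encodes a ubiquitin ligase, was also higher in EPL (log2 fold change 0.83 ± 0.14, adjusted p = 0.0079), although both groups, at 13.0 ± 2.23 and 7.3 ± 0.682 CPM, lay below the 21.99 ± 2.68 CPM of non-stimulated cells. The 9 tested LXR targets had 2 genes higher and 0 lower with a median of -0.08, and the lipogenic targets SREBF1 (0.36) and SCD (-0.30) did not pass the test.

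IL12B, IL23A, IL1B and IL33, cytokine genes of the IL-12 and IL-1 families, were higher in EPL. IL12B encodes the p40 chain shared by IL-12 and IL-23 (chromosome 5, 159314780 to 159330863). IL12B had 17.6, 21.9 and 19.9 CPM in the EPL libraries and 6.9, 5.02 and 8.62 CPM in the SPL libraries, at a log2 fold change of 1.54 ± 0.21 (adjusted p = 0.00222). All 3 EPL values lay above all 3 SPL values, and non-stimulated cells were at 0.12 ± 0.0562 CPM. IL23A encodes p19, the partner of p40 in IL-23. IL23A had 151, 143 and 126 CPM in the EPL libraries and 79.2, 70.1 and 64.9 CPM in the SPL libraries, and the log2 fold change was 0.97 ± 0.16 (adjusted p = 0.0079). EBI3, the IL-27 subunit, had 434 ± 81.6 CPM in EPL and 298 ± 27.7 CPM in SPL without passing the test (adjusted p = 0.089). Of the 4 tested subunit genes, 2 were higher and 0 lower, with a median of 0.76.

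IL1B had 1390.1, 1390.3 and 1273 CPM in the EPL libraries and 950.1, 810.0 and 818 CPM in the SPL libraries. This gene of the pyrogenic cytokine IL-1β (chromosome 2, 112829751 to 112836816) was thus higher in each EPL library than in each SPL library, at a log2 fold change of 0.65 ± 0.13 (adjusted p = 0.0172), against 2.15 ± 0.587 CPM in non-stimulated cells. IL33, an alarmin of the same family, was a DEG at 4.33, 5.99 and 5 CPM in EPL and 1.79, 2.25 and 1.45 CPM in SPL (1.47 ± 0.23, adjusted p = 0.00675), with no count in NC. The receptor antagonist gene IL1RN (0.39, adjusted p = 0.0593) and IL1A (0.53, adjusted p = 0.131) did not pass the test. The 6 tested genes of the IL-1 family had a median of 0.59, with 2 higher and 0 lower. IL6 was at low counts in both groups, with 0.787, 0.573 and 0.562 CPM in EPL and 0.958, 0.515 and 0.483 CPM in SPL (-0.03 ± 0.47, adjusted p = 0.995). Among the 13 tested other interleukins and cytokines 0 passed the test in edgeR. An unadjusted p no larger than 0.05 was found for 3, and DESeq2 called 1. Over all 17198 tested genes these counts were 188, 1447 and 359. INHBA, an activin subunit of this list, passed without EPL1 (1.55, adjusted p = 0.0382). The list had a median of 0.33.

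TNF went the other way. TNF had 203, 194 and 182 CPM in the EPL libraries and 300.4, 328 and 310.0 CPM in the SPL libraries. Every EPL value of this central inflammatory cytokine was below every SPL value, and both groups were above the 18.2 ± 0.828 CPM of non-stimulated cells. The log2 fold change of EPL over SPL was -0.70 ± 0.12 (adjusted p = 0.0079), and it was -0.74 without EPL1. Of the 12 tested TNF superfamily ligands TNF was the only one lower at an adjusted p no larger than 0.05, while TNFSF10 (TRAIL, a death ligand) and TNFSF13B (BAFF, a survival factor of B cells) were higher, with log2 fold changes of 0.57 and 0.47. Without EPL1, TNFSF13B had an adjusted p of 0.0643. TNFRSF9 (4-1BB), a costimulatory receptor of the same superfamily, was a DEG. TNFRSF9 had 49.2, 52.6 and 49.5 CPM in the EPL libraries and 23.0, 22.4 and 23.1 CPM in the SPL libraries, at a log2 fold change of 1.14 ± 0.13 (adjusted p = 0.000419).

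**Figure D3:**
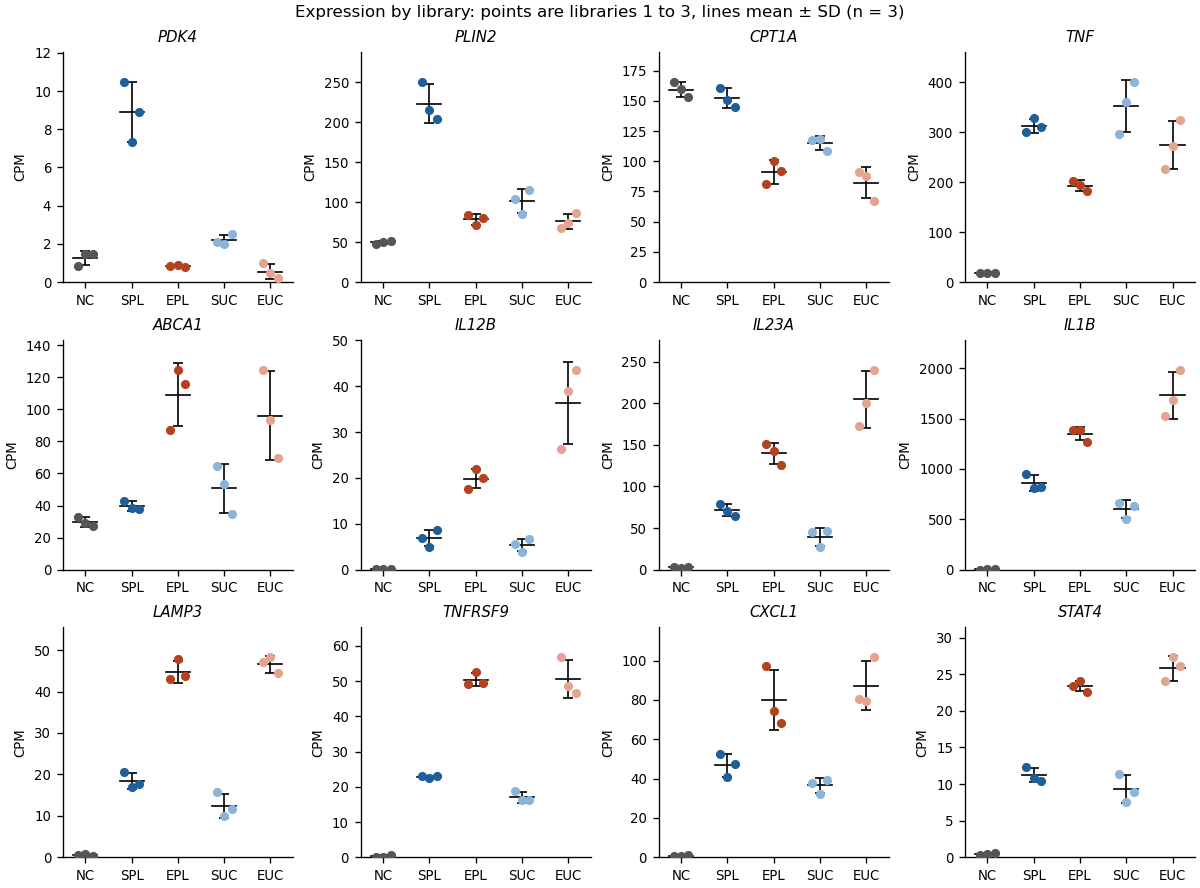
CPM of 12 genes in the 5 groups (non-stimulated NC, then SPL, EPL, SUC and EUC); points are libraries 1 to 3, the long line is the mean and the bars are the SD (n = 3). PDK4, PLIN2, CPT1A and TNF are higher in SPL, and ABCA1, IL12B, IL23A, IL1B, LAMP3, TNFRSF9, CXCL1 and STAT4 in EPL, without overlap of EPL and SPL.

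Chemokine genes were higher in EPL where they differed. CXCL1, CXCL2 and CXCL6 encode neutrophil attractants that act on the receptor CXCR2 and lie near each other on chromosome 4. CXCL1 had 97.1, 74.4 and 68.4 CPM in the EPL libraries and 52.4, 40.7 and 47.6 CPM in the SPL libraries. CXCL2 had 82.0, 75.1 and 60.9 CPM in the EPL libraries and 52.4, 42.8 and 42.1 CPM in the SPL libraries. CXCL6 had 4, 4.33 and 4.37 CPM in the EPL libraries and 1.79, 1.74 and 1.72 CPM in the SPL libraries. None of the 3 genes had overlapping groups, and their log2 fold changes were 0.77 ± 0.14, 0.67 ± 0.14 and 1.27 ± 0.25, with adjusted p-values of 0.00933, 0.0248 and 0.0172. CXCL8, the neutrophil attractant IL-8, was at 1628 ± 45.6 CPM in EPL and 1221 ± 99.6 CPM in SPL, which did not pass the test (0.41 ± 0.12, adjusted p = 0.142). CXCL12, a ligand of CXCR4, had 51.0 ± 3.92 and 27.3 ± 2.24 CPM (0.90 ± 0.16), and CXCL13, which attracts B cells, had 4.65 ± 1.76 and 1.18 ± 0.783 CPM (1.97 ± 0.41). Of the 12 tested CXC chemokines 5 were higher and 0 lower, against 0.855% and 0.238% of all tested genes, with a median of 0.62. Of the 16 tested CC chemokines CCL5, CCL22 and CCL24 were higher and 0 lower, with a median of 0.35 that was 0.20 without EPL1. Without that library CCL1 passed (1.53, adjusted p = 0.0347), while CXCL2, CXCL13, CCL22 and CCL24 missed the threshold, at adjusted p-values of 0.0828, 0.0984, 0.0563 and 0.0522. CCL5 had 357, 281 and 256 CPM in the EPL libraries and 194, 194 and 172 CPM in the SPL libraries (0.67 ± 0.12, adjusted p = 0.0079). CCL2 and CCL4 were at log2 fold changes of -0.01 and 0.17. Reads of CXCL1 and CXCL2, whose sequences are much alike, may have been shared between them in counting.

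The sequences just before the start sites of the neutrophil attractants are shown because these 3 genes moved together and their promoters are known NF-kappa B targets. They are the 120 bases before the RefSeq start site on GRCh38.p14, 5′ to 3′, of CXCL1 (plus strand, chr4:73869273-73869392), CXCL2 (minus strand, chr4:74099196-74099315) and CXCL6 (plus strand, chr4:73836558-73836677). Capitals mark the bases of the NF-kappa B motif, here in overlapping matches on both strands:
CXCL1: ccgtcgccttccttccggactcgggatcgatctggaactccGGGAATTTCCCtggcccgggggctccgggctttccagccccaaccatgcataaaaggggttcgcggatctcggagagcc
CXCL2: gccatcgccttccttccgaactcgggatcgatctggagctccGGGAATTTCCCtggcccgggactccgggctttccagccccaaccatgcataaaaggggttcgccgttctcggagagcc
CXCL6: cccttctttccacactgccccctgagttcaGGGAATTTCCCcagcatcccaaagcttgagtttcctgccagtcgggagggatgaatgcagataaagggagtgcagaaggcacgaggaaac
The 3 promoters held the same capital letters, starting 79, 78 and 90 bases before the start site. A match is a description and not a site in use. In promoters from 250 bases before to 50 after the start site, searched on both strands, the motif matched in 17.2% of the 116 promoters found for genes higher in EPL and in 26.7% of the 30 found for genes lower in EPL. It matched in 13.2% of the 11432 promoters of tested genes and in 10.8% of all 27305 promoters.

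Interferon-stimulated genes, which cells switch on in response to interferons, were mostly fitted a little higher in EPL. Of the 39 tested members 38 were fitted above 0, with a median log2 fold change of 0.33 (0.37 without EPL1), and 26 had all EPL values above all SPL values, for which the share over all tested genes was 8.19%. In edgeR 5 passed at an adjusted p no larger than 0.05, all higher, against 13 in DESeq2 and 24 at an unadjusted p no larger than 0.05. Without EPL1, EUC3 and SUC3 together, a fit chosen after seeing the data, 30 passed. Over all tested genes and both directions these counts were 188, 359, 1447 and 1494, the last of 17584 genes, so they rose for genes in general. Of the list, 37 were up-regulated DEGs against NC in EPL and 37 in SPL. The summed level of the list ran from 7492 to 8187 CPM in EPL and from 6171 to 6521 CPM in SPL. LAMP3, a lysosomal protein of interferon-treated and dendritic cells, was the only DEG among them (chromosome 3, 183122215 to 183163839). LAMP3 had 42.9, 47.8 and 43.6 CPM in the EPL libraries and 20.7, 16.9 and 17.6 CPM in the SPL libraries, at a log2 fold change of 1.28 ± 0.14 (adjusted p = 0.000414). ISG20, an exonuclease that degrades viral RNA, had 38.9, 31.2 and 30.5 CPM in EPL and 21.6, 23.2 and 16.5 CPM in SPL (0.71 ± 0.16, adjusted p = 0.0373). IFI44 had 141, 139 and 139 CPM in EPL and 104, 101 and 99.6 CPM in SPL (0.46 ± 0.10, adjusted p = 0.0391). EPSTI1 (0.48 ± 0.11) and CMPK2, a mitochondrial nucleotide kinase (0.36 ± 0.08), completed the 5, and an exon of CMPK2 overlaps RSAD2. Without EPL1, LAMP3 alone kept its call, and the adjusted p was 0.121 for ISG20, 0.0662 for IFI44, 0.112 for EPSTI1 and 0.0505 for CMPK2. OAS2 and OAS3, sensors of double-stranded RNA, had log2 fold changes of 0.21 and 0.25 and did not pass the test.

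IFNB1 itself, the type I interferon that TRIF signalling induces, was at 0.919, 0.51 and 0.437 CPM in EPL and 0.192, 0.451 and 0.0689 CPM in SPL, with overlapping groups and an adjusted p of 0.721. It was the only 1 of 8 listed interferon genes with enough counts to be tested. Of the 17 genes typical of interferon-γ, GBP5, a GTPase that guards against intracellular bacteria, was higher (0.61 ± 0.12, adjusted p = 0.0154), and the median was 0.32. Without EPL1, GBP2 and APOL6 passed too, at adjusted p-values of 0.0446 and 0.0405. Among 15 IRF and STAT factors, STAT4, which carries the IL-12 signal, was a DEG. STAT4 had 23.4, 24.0 and 22.6 CPM in the EPL libraries and 12.3, 10.9 and 10.4 CPM in the SPL libraries, at a log2 fold change of 1.06 ± 0.13 (adjusted p = 0.00074). STAT5A, which carries the signals of growth factors and interleukins, had a log2 fold change of 0.64 ± 0.09 (adjusted p = 0.00222), and 1 of its exons overlaps STAT5B.

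The promoters of 3 of these interferon-stimulated genes are shown in the same way, because they held the core of the interferon-stimulated response element, GAAANNGAAA. They belong to IFI44 (plus strand, chr1:78649669-78649788), EPSTI1 (minus strand, chr13:42992242-42992361) and ISG20 (plus strand, chr15:88638896-88639015), on GRCh38.p14 from RefSeq, and capitals mark the match, which is on the reverse strand in IFI44:
IFI44: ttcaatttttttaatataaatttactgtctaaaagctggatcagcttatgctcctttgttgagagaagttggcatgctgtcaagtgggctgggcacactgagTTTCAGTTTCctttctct
EPSTI1: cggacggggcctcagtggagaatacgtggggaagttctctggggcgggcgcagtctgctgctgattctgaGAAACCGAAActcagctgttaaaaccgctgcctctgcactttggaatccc
ISG20: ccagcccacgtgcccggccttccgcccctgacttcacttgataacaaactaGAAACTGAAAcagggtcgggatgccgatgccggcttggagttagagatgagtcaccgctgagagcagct
This core matched, on either strand, in 9 of the 116 promoters of genes higher in EPL (7.76%) and in 0 of the 30 of genes lower in EPL. It matched in 2.93% of the promoters of tested genes and in 3.65% of all promoters. No test was made of these shares.

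Several of the other higher DEGs encode receptors or adhesion molecules. Each of the 18 higher DEGs had its lowest mean in non-stimulated cells, against 43.5% of all tested genes. CALCRL, the receptor for adrenomedullin and calcitonin gene-related peptide, had 9.97, 11.5 and 12.2 CPM in EPL and 3.83, 4.19 and 4.14 CPM in SPL (1.47 ± 0.17, adjusted p = 0.000539). OLR1, a scavenger receptor for oxidized LDL, had 5.84, 5.8 and 6.37 CPM in EPL and 2.3, 2.32 and 2.69 CPM in SPL (1.30 ± 0.22). VCAM1, an adhesion molecule for leukocytes, had 10.9, 11.6 and 10.6 CPM in EPL and 5.17, 3.67 and 6 CPM in SPL (1.16 ± 0.17) and no count in NC. TRAF1, an adaptor of TNF receptors and an NF-kappa B target, had 95.8, 107 and 98.5 CPM in EPL and 53.2, 48.9 and 45.6 CPM in SPL (1.03 ± 0.15). NT5E (CD73), which makes adenosine from AMP outside the cell, had 15.3, 18.2 and 16.9 CPM in EPL and 8.43, 7.6 and 8.2 CPM in SPL (1.06 ± 0.14). CRLF2, a receptor chain for TSLP, and SLC1A2, a glutamate transporter, had log2 fold changes of 1.20 ± 0.20 and 1.18 ± 0.19. None of these genes had overlapping groups, which was a condition of naming for all but TRAF1 and NT5E.

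The tubulin gene TUBB2A had the largest log2 fold change among the higher DEGs, 1.55 ± 0.22 (adjusted p = 0.00255). Its EPL values were 22.6, 12.7 and 13.9 CPM and its SPL values 6.2, 5.54 and 4.96 CPM, and without EPL1, the highest library, the log2 fold change was 1.25. TUBB2A has a near-identical paralogue, TUBB2B, so its counts are uncertain. ETV3L (1.43), PXDC1 (1.09), the GTPase regulator ARHGAP22 (1.00) and the lncRNA gene ENSG00000287097 (1.10) complete the DEGs, and ENSG00000287097 had 23.6, 21.8 and 22.8 CPM in EPL, 11.3, 10.7 and 9.86 CPM in SPL and no count in NC.

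Genes of dendritic cell maturation included 3 higher members of 17 tested (LAMP3, TNFRSF9 and SLAMF7), 0 lower and a median of 0.47. CCR7, the receptor that guides mature dendritic cells to lymph nodes, was at 0.984, 1.85 and 1.25 CPM in EPL and 0.383, 0.58 and 0.276 CPM in SPL, without overlap and with an adjusted p of 0.0563. Without EPL1, CCR7 and CD80, a costimulatory ligand, passed, at adjusted p-values of 0.0476 and 0.0359. Matrix genes had 3 higher members of 22 tested and 0 lower, with a median of 0.32. These were THBS1, an adhesive glycoprotein (0.63 ± 0.14), the collagenase MMP1 (1.10 ± 0.24) and the basement membrane collagen COL4A1 (0.61 ± 0.13). Of the 5 fibroblast markers (COL1A1, COL1A2, COL3A1, DCN and PDGFRB), the 3 tested summed to 6.37 to 8.53 CPM in EPL and 3.86 to 5.11 CPM in SPL. Of these 3, edgeR called 0 and DESeq2 called 1, and the part of fibroblast markers in the matrix genes was not tested. Without EPL1, MMP1 missed the threshold, at an adjusted p of 0.0522. SOD2 had 4809, 4987 and 5055 CPM in the EPL libraries and 3534, 3351 and 3669 CPM in the SPL libraries. SOD2 encodes the mitochondrial superoxide dismutase and was higher in EPL without overlap of the groups (0.49 ± 0.10, adjusted p = 0.026). SLC2A1, the glucose transporter GLUT1, was the only 1 of 22 tested glycolysis genes to pass (0.38 ± 0.07, adjusted p = 0.0172), while ENO1 and PKM were at -0.03 and 0.08. SLC7A2, an arginine transporter, was higher among 13 secondary mediators (0.81 ± 0.19), and the phosphatase gene DUSP7 was lower among 9 MAP kinase phosphatases (-0.38 ± 0.09). DUSP16 of the same list passed without EPL1 (0.65, adjusted p = 0.0421).

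Of 22 tested genes of TLR signalling, the receptors and first steps, 0 passed in edgeR, 3 had an unadjusted p no larger than 0.05 and DESeq2 called 1, and the median was 0.01. TLR4 had 55.4, 72.5 and 71.7 CPM in EPL and 55.6, 44.4 and 48.3 CPM in SPL, with overlap in EPL1 (0.43 ± 0.11, adjusted p = 0.0723). Without EPL1, TLR4 passed at a log2 fold change of 0.54 (adjusted p = 0.0148). TLR2 had 104, 111 and 108 CPM in EPL and 125, 116 and 127 CPM in SPL (-0.19 ± 0.08, adjusted p = 0.495). A p that misses the threshold does not show that levels were alike. Of 24 tested NF-kappa B subunits and feedback inhibitors TRAF1 alone passed, with a median of 0.12, and TNFAIP3 and NFKB2 had log2 fold changes of 0.08 and 0.24. None passed among 15 genes of MHC class I presentation (median 0.06), 10 of MHC class II (0.1), 17 of the inflammasome and cell death (0.06), 13 of complement and the acute phase (0.07) and 6 metallothioneins (0.14). The same held for 23 immediate early genes (0.03) and 30 of replication and mitosis (-0.04). With TLR signalling and the other interleukins and cytokines, these made 9 lists with 149 tested genes. Of these genes 21 had an unadjusted p no larger than 0.05 and DESeq2 called 6. Over all 17198 tested genes 1447 had such a p and DESeq2 called 359. CIITA, the master regulator of MHC class II, was at 17.6, 20.5 and 19.8 CPM in EPL and 12.2, 8.5 and 9.17 CPM in SPL with an adjusted p of 0.101. GSDMD, the pore former of pyroptosis, showed the spread of EPL1, with 233, 152 and 141 CPM in EPL against 175, 180.4 and 168 CPM in SPL (0.01 ± 0.16). GAPDH was at 693 ± 25.4 and 710.2 ± 23.1 CPM (-0.04 ± 0.07, adjusted p = 0.978). The 11 tested stress genes were all fitted below 0 with a median of -0.12, and 0 passed in edgeR, in DESeq2 or at an unadjusted p no larger than 0.05. The 13 mitochondrial transcripts had a median of 0.01 with 0 called by either tool or unadjusted. LYZ was the only monocytic marker of 17 to pass (0.35 ± 0.07, adjusted p 0.0686 without EPL1).

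**Figure D4:**
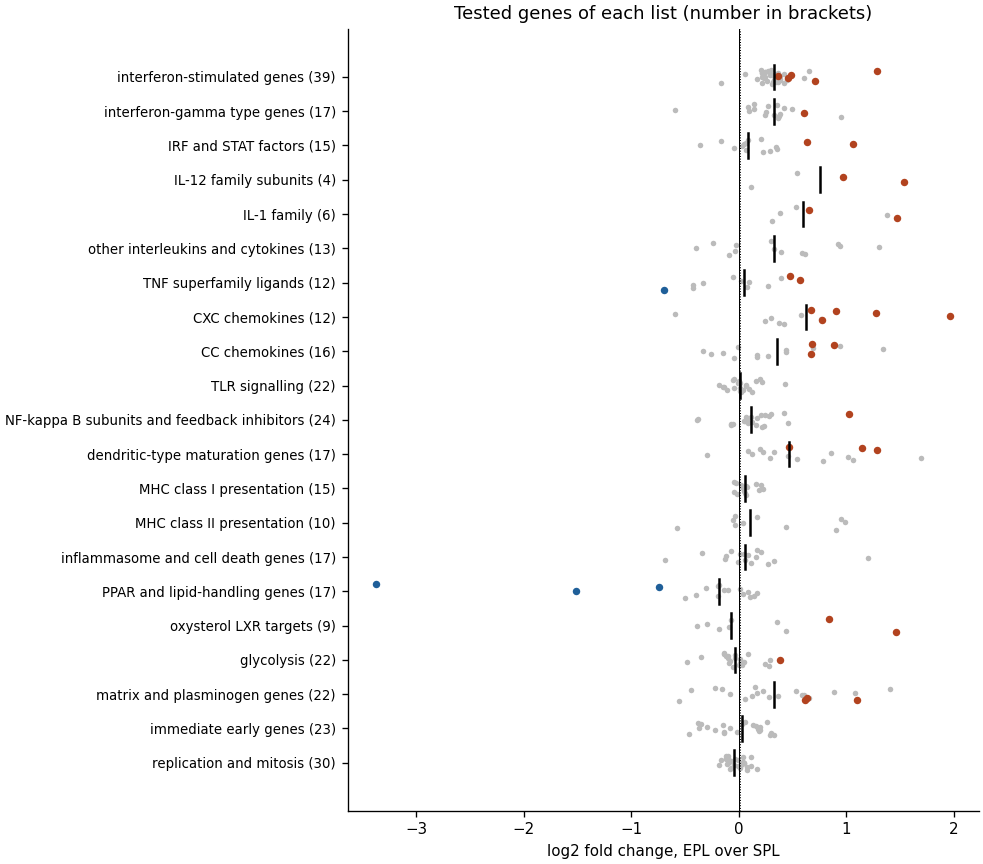
Each point is 1 tested gene of a list, placed by its log2 fold change of EPL over SPL, and the black bar is the median of the list. Red (higher in EPL) and blue (lower) points have an adjusted p no larger than 0.05, grey points do not, and the dotted line is the median of all tested genes, 0.01. The IL-12 family (0.76) and the CXC chemokines (0.62) have the highest medians shown and the PPAR and lipid genes (-0.18) the lowest.

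The levels of non-stimulated cells place these differences. EPL and SPL share the NC libraries, so their comparisons with NC are not independent and are only set side by side. Against NC, 1613 genes (9.38%) were up-regulated and 885 (5.15%) down-regulated in EPL, and 1335 (7.76%) and 637 (3.7%) in SPL. Of the 147 genes higher in EPL than in SPL, 127 were up-regulated DEGs against NC in EPL and 106 in SPL. The 147 were picked by their EPL and SPL values, so these counts are not independent of that choice. NC had the lowest mean for 136 of them (92.5%, against 43.5% of all tested genes). Of the 41 genes lower in EPL, NC had the highest mean for 31 (75.6%, against 44.2% of all tested genes). It had the lowest for 6 (14.6%, against 43.5%). Against NC, 21 of the 41 were down-regulated in EPL and 17 in SPL. IL1B had log2 fold changes over NC of 9.28 in EPL and 8.63 in SPL, and TNF of 3.40 and 4.10. PDK4 had a log2 fold change over NC in SPL of 2.80, with -0.57 in EPL. PLIN2 was at 2.17 in SPL and 0.65 in EPL.

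The same contrast of species and dose was available in libraries that EPL and SPL do not include, those of the BEVs isolated by ultracentrifugation. Both contrasts come from the fit over all 15 libraries and share its estimate of each gene's spread, so their p-values are not independent. EUC over SUC gave 126 higher DEGs (0.733%) and 6 lower (0.0349%). Of the 188 genes that differed between EPL and SPL, 187 had the same direction in EUC over SUC (99.5%, against 63.7% of all tested genes). At an adjusted p no larger than 0.05 in the same direction were 172, which is 91.5% of the 188 and 20.5% of the 837 genes that passed in EUC against SUC. Among all tested genes this share was 4.73%. The one exception in direction was BICD1, at 0.53 in EPL over SPL and -0.00 in EUC over SUC. The change was larger in EUC over SUC for 143 of the 188 genes, and for 9811 of all 17198 tested genes. All 18 higher DEGs had the same direction and 17 were DEGs there. IL12B had a log2 fold change of 2.76, IL23A of 2.37 and IL1B of 1.53. TNF had -0.36 (adjusted p = 0.11) and PLIN2 -0.41 (adjusted p = 0.0549), neither of which passed, while PDK4 passed at -2.01 (adjusted p = 0.003). Of the LXR targets, MYLIP did not pass there (0.21, adjusted p = 0.577), while ABCA1 did (0.92, adjusted p = 0.015).

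Whether the difference between the bacteria itself changed with the isolation method was tested as an interaction. By the rule for DEGs 0 genes (0%) were called in edgeR, with 659 genes at an unadjusted p no larger than 0.05, and DESeq2 called 3, IL23A, THBS1 and PLIN2. In edgeR PLIN2 and THBS1 had the smallest adjusted p, 0.0717, and IL23A had 0.0939. PLIN2 was at 223 ± 24.2 CPM in SPL but 101 ± 15.3 CPM in SUC, and at 78.2 ± 6.33 and 75.8 ± 9.31 CPM in EPL and EUC. THBS1 was at 52.3 ± 5.88 CPM in SPL and 26.9 ± 6.03 CPM in SUC, with 81.2 ± 4.96 and 98.0 ± 14.9 CPM in EPL and EUC. For IL23A, the SPL mean of 71.4 ± 7.25 CPM stood against 39.5 ± 10.7 CPM in SUC, and the EPL mean of 140.0 ± 12.5 CPM against 205 ± 34.0 CPM in EUC.

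**Figure D5:**
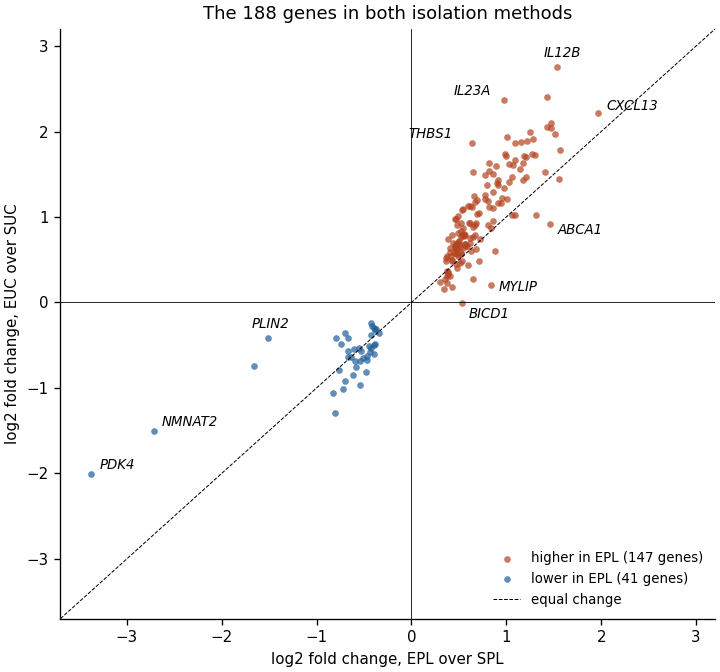
The 188 genes at an adjusted p no larger than 0.05 are placed by their log2 fold change of EPL over SPL (horizontal) and of EUC over SUC (vertical); red genes were higher and blue genes lower in EPL, and the dashed line marks equal changes. All but BICD1 lie on the same side of 0 on both axes, and PDK4 and PLIN2 lie nearer to 0 on the vertical axis. On that axis 143 of the 188 lie farther from 0, as was so for 9811 of all 17198 tested genes.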

How the data were processed

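The 15 libraries hold RNA of THP-1 cells, which the authors took up in Trizol and prepared with an NEB kit for paired-end sequencing. Reads were checked by the authors with FastQC and mapped to hg38 by HISAT2 2.1.0 with its default settings. The authors deposited whole-number read counts per Ensembl gene, without normalization. The submitters' processing notes also name StringTie 1.3.3b, DESeq 1.28.0 and featureCounts with no role. Which program counted the reads, with which strand setting and annotation release, is not given in the sources used here.

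Groups came from the labels. Counts were filtered with filterByExpr (17198 of 60286 genes were tested; 23219 had no count), TMM-normalized and fitted with edgeR 4.0.16 (glmQLFit, glmQLFTest, R 4.3.3) over all 15 libraries without a replicate block, for EPL against SPL, EUC against SUC, each PL group against NC and the interaction, with Benjamini-Hochberg adjustment. DEG thresholds were those of the study, which used DESeq2. CPM and SD are over 3 libraries. The script was tested on simulated data. Alternatives were DESeq2 1.42.0, RLE size factors, other filters, the 6 libraries alone, a replicate block, glmTreat, leaving out each library and, chosen after seeing the data, leaving out 3 libraries together and a correction for GC content and length.

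Gene positions come from GENCODE release 44 and promoters from RefSeq. The gene lists and the naming rule were written with earlier results of these data known. The rule takes IL1B, IL6, CXCL8, IFNB1, GAPDH, up to 15 DEGs per direction by size at a mean CPM of at least 1 without overlap of groups, every DEG and up to 10 further genes where a direction has under 10, list members at an adjusted p no larger than 0.05 or among the 4 smallest p or 3 highest levels of a list, and interaction calls. Some genes that the rule takes are not reported here. NT5E and ARHGAP22, which lie beyond the first 15 higher DEGs, BICD1 and the genes under other observations were named after their values were seen.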

Additional observations from a re-analysis of the deposited data

How the results depend on the processing

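The direction of each of the 188 genes was the same in every alternative that tested it. The alternatives refit the counts by which the 188 were picked, so a kept direction is no independent support. With RLE size factors 18 genes were higher DEGs and 3 lower, and with the 6 libraries alone 19 and 2. The replicate block gave 18 and 2, with 139 higher and 39 lower genes at an adjusted p no larger than 0.05. Deviations of same-numbered EPL and SPL libraries from their group means correlated at -0.0641, -0.0319 and 0.0358. For different numbers the correlations ran from -0.0784 to 0.0873. With so few libraries these values cannot exclude a pairing. Without a filter on low counts 38 genes were higher and 5 lower DEGs (226 and 65 at an adjusted p no larger than 0.05), with DESeq2 39 and 4 (267 and 92), and with the correction for GC content and transcript length 23 and 5 (268 and 115). Without EPL1, EUC3 and SUC3 together they were 41 and 4 (863 and 631 of 17584 tested genes). In that fit 9 CXC chemokines, 7 CC chemokines and 7 NF-kappa B subunits and inhibitors were higher and 7 PPAR and lipid-handling genes lower. There, as without EPL1 alone, GSDMD turned from 0.01 to a log2 fold change of -0.25. Without a threshold on the fold change 50 genes were higher and 16 lower, while a test against a 2-fold change (glmTreat) called 0 higher and 1 lower, PDK4. Leaving out 1 library gave 3 to 11 higher and 2 lower DEGs, and 32 to 135 higher and 9 to 54 lower genes at an adjusted p no larger than 0.05. The interaction was called for 3 genes by DESeq2 and 0 with the replicate block. The mean correlation within minus between groups was 0.008572 over the 1000 most variable genes, from -0.0003217 (without SPL2, with the sign turned) to 0.003203 without 1 library. The causes of these changes were not tested. The Spearman rho of the log2 fold changes with GC content was -0.137, and -0.0231 after the correction. At few counts the error was wide, as for IL6 (log2 fold change -0.03 ± 0.47).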

Other observations

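Of the 188 genes that differed at an adjusted p no larger than 0.05, 127 lay outside the lists and rules above, and the following, apart from DHRS9, were chosen after their values were seen. Several encode receptors that were higher in EPL. IL7R, the IL-7 receptor chain, had 187, 246 and 238 CPM in EPL and 137, 108 and 126 CPM in SPL, against 1.08 ± 0.356 CPM in NC (log2 fold change 0.86 ± 0.13, adjusted p = 0.00411). CD209 (DC-SIGN), a lectin of dendritic cells, had 101, 82.1 and 71.4 CPM in EPL and 56.7, 51.7 and 54.1 CPM in SPL, with EPL1 the highest library. CLEC7A (dectin-1), a receptor for fungal glucans, was at 14.2 ± 0.905 CPM in EPL and 7.51 ± 1.36 CPM in SPL. IL10RA, TNFRSF1B, IFNGR1 and PTAFR, receptors for IL-10, TNF, interferon-γ and platelet-activating factor, had log2 fold changes of 0.53 ± 0.12, 0.48 ± 0.10, 0.37 ± 0.07 and 0.50 ± 0.08. NRP1 and NRP2, coreceptors for semaphorins and VEGF, were higher at 0.86 ± 0.13 and 1.25 ± 0.28. Matrix genes outside the list included COL6A1 (0.65 ± 0.14), COL6A2 (0.72 ± 0.14), COL5A2 (0.91 ± 0.18) and LAMB1 (0.68 ± 0.16), with COL6A1 and COL6A2 highest in EPL1. CD44, a receptor for hyaluronan, had 758, 902 and 887 CPM in EPL and 606, 587 and 616 CPM in SPL (0.49 ± 0.08, adjusted p = 0.00486).

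Genes lower in EPL included sensors and surface proteins that were highest in non-stimulated cells. STING1, the adaptor of cytosolic DNA sensing, had 109, 94.2 and 88.8 CPM in EPL, 131, 150.2 and 136 CPM in SPL and 395 ± 13.3 CPM in NC (-0.52 ± 0.10, adjusted p = 0.0131). TASL, an adaptor of endosomal TLRs, was at 74.4 ± 3.8 CPM in EPL, 103 ± 2.8 CPM in SPL and 144 ± 8.21 CPM in NC (-0.47 ± 0.10). CD1D, which presents lipids to NKT cells, and ITGAL, the integrin chain of LFA-1, had log2 fold changes of -0.60 ± 0.14 and -0.53 ± 0.09. DHRS9, a retinol dehydrogenase, was at 30.1 ± 2.14 CPM in EPL, 49.7 ± 6.39 CPM in SPL and 161 ± 2.18 CPM in NC (-0.72 ± 0.12, adjusted p = 0.0078). FADS2, a fatty acid desaturase, was at 56.6 ± 0.605 CPM in EPL and 76.7 ± 4.78 CPM in SPL (-0.44 ± 0.08). LCP1, the actin-bundling plastin of leukocytes, was an exception to the order, at 997 ± 72.8 CPM in EPL, 1291 ± 38.7 CPM in SPL and 895 ± 6.62 CPM in NC (-0.37 ± 0.07).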
